A study of Homo sapiens with 32 samples.

Results

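The LPS response of THP-1 cells that carry a catalytically dead ACLY was measured as the difference between 4 HA LPS libraries and 4 HA libraries. THP-1 is a human monocytic leukemia cell line. All 8 libraries came from 1 line, in which ACLY knockout cells were transduced with a lentivirus that codes for H760A ACLY under an EF promoter and were selected with puromycin, so treated and untreated cells share the knockout, the construct and the selection. HA cells were untreated, and HA LPS cells received lipopolysaccharide at 100 ng/ml for 3 hours according to the labels, while the treatment paragraph of the methods names another concentration. Of the 60107 genes in the tables, 12348 were tested, namely those whose mean over these 8 libraries reached 10 normalized counts (reads divided by a size factor per library). The series holds 32 libraries in 8 groups of 4, which also cover ACLY knockout cells (KO) and knockout cells given wild type (WT) or S455A (SA) ACLY, each with and without LPS. The labels number the libraries 1 to 4 within a group and name 1 line per genotype, so p-values measure the spread between libraries of a line.

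LPS is a component of the outer membrane of Gram-negative bacteria. CD14 hands it to the receptor TLR4 and its partner MD-2, coded by LY96, and the adaptors MyD88 and TRIF then carry the signal. The MyD88 arm leads early to NF-kB and AP-1 and to cytokine and chemokine genes, and the TRIF arm leads through IRF3 to interferon beta and interferon-stimulated genes. ACLY cleaves citrate to cytosolic acetyl-CoA, which feeds lipid synthesis and the acetylation of histones, and histidine 760 is the active-site residue that the H760A change removes. The series asks how this activity bears on histone acetylation and inflammatory responses in monocytic cells.

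The codon that H760A replaces is shown because it defines the line. It is codon 760 of the 1101 codons of the GENCODE release 44 transcript and lies in exon 21 on the minus strand at chr17:41878910-41878912 of GRCh38. The stretch reads along the coding strand, with the histidine codon in capitals.
ACLY codon 760, reference: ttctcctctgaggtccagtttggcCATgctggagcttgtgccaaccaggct
The libraries read the 3′ ends of transcripts and the tables hold counts per gene, so the change itself was not visible in them. The ACLY count (ENSG00000131473) was 141, 86.3, 70.1 and 109 in HA libraries 1 to 4 and 63.4, 67.9, 78.03 and 93.2 in HA LPS libraries 1 to 4. The groups overlapped, and the log2 fold change was -0.39 (SE 0.26, limma adjusted p = 0.949). A 3′ count does not tell transcripts of the edited gene from those of the construct, so it does not check the label.

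The 8 libraries had 8188012 to 12964789 reads on genes. HA 1 and HA LPS 1 had 15123 and 14953 genes detected, against 16496 to 18058 in the other 6. On the first principal component, which held 44.3% of the variance, HA 1 (-60.9), HA LPS 1 (-55.1) and HA 2 (-26.02) lay below 0 and the other 5 between 10.7 and 48.7. The defining markers of the line were present, with a mean LYZ count of 15672 in HA cells, 6022 for ELANE and 313 for CD33. Of 13 markers of T, B and NK cells, 3 reached the filter and CD3E had 0 reads, while 0 of 14 epithelial, fibroblast and erythroid markers reached it.

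LPS raised 33 genes in HA cells, 0.267% of the 12348 tested, at a limma adjusted p below 0.01. In each of the 33, all HA LPS libraries lay above all HA libraries. In 3 of the 33 (CXCL9, CCL8 and TNFRSF9) the HA mean was below 10. These reached the filter only through their HA LPS libraries. The largest fold changes belonged to chemokines (CXCL9, CCL4, CCL4L2, CXCL11, CXCL10), and the genes also included the interferon-stimulated IFIT1, IFIT2 and IFIT3 and the inflammatory mediators IL1B and TNF. The mean count after LPS was at least 4 times that before in 17 of the 33 and at least 2 times in 32. Together, the 33 genes took 0.0815 to 0.100% of the reads in the HA libraries and 0.317 to 0.394% in the HA LPS libraries.

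No gene fell by this test (0 of 12348, 0%), and limma voom on the recovered reads also gave 0. At an unadjusted limma p below 0.05, 363 genes were higher and 233 lower, 596 in all where 617.4 would be expected without any difference. This total depended on the fit. It was 384 (without HA 2) to 1571 (without HA LPS 1) with 1 library left out, and 1074 without both libraries numbered 1. With the replicate number as a block it was 1469, and with library weights 1534. Each HA LPS library lay above each HA library in 249 genes (2.02%) and below in 173 (1.40%). At an adjusted p below 0.05, 52 genes rose (0.421%) and 0 fell. With 1 library left out, the number of genes called at 0.01 was 11 to 29. It was 11 without HA LPS 3, 12 without HA LPS 2, 13 without HA 2, 17 without HA 3 and 21 without HA 4, and all genes called in these fits rose. Without both libraries numbered 1, it was 38, of which 30 were among the 33.

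**Figure D1:**
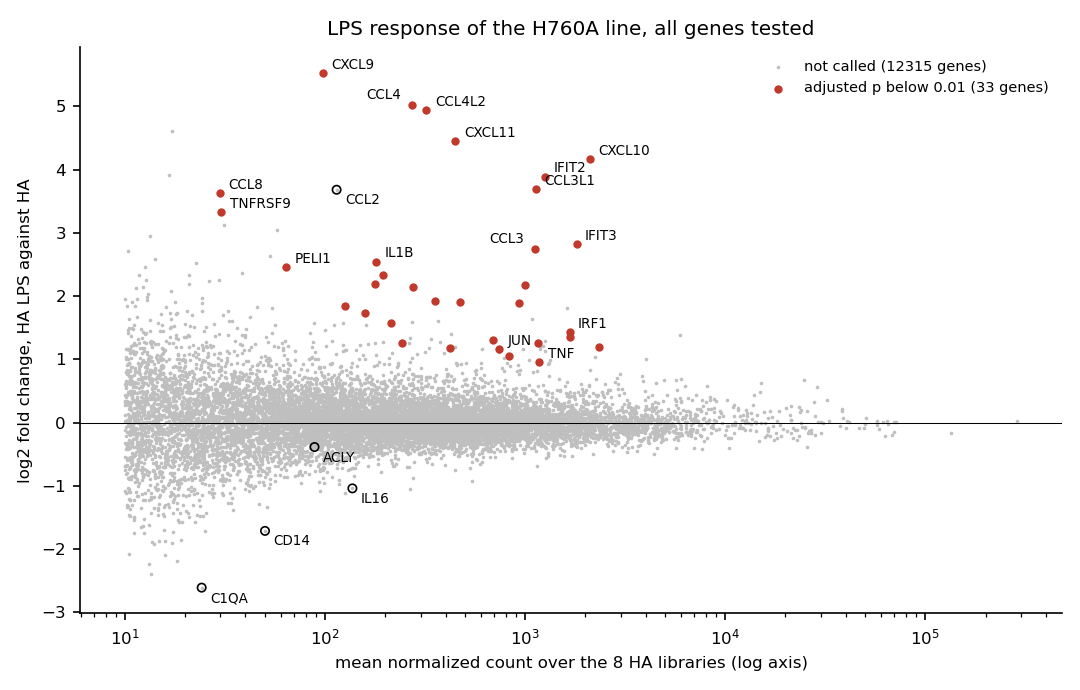
Log2 fold change of HA LPS against HA cells (vertical axis) against the mean normalized count over the 8 libraries on a log axis, 1 point per gene tested. Red points are the 33 genes past an adjusted p of 0.01, all of which lie above 0; black circles mark 5 further genes that did not pass, among them CCL2 above 0 and C1QA, CD14, IL16 and ACLY below it.

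The chemokine genes that rose, except CCL8, lie in clusters. CXCL9, CXCL10 and CXCL11 span 40.1 kb at chr4:76001275-76041415, and CCL3, CCL4, CCL3L1 and CCL4L2 span 124.6 kb at chr17:36088256-36212878. IFIT2, IFIT3 and IFIT1 span 122.8 kb at chr10:89283694-89406487, and GBP4 and GBP5 span 91.7 kb at chr1:89181144-89272860 (GRCh38, GENCODE release 44). The remaining 21 of the 33 had no other called gene within 500 kb.

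Promoter stretches of 4 rising genes are shown because LPS acts on such genes through factors with known recognition sequences. The RefSeq promoter windows run from 250 bases before to 50 after a gene's start on GRCh38.p14, and 23 of the 33 genes matched one. Genes without a window in the table included CCL4, CCL4L2, IFIT2, CCL3L1, GBP5, SLAMF7, OASL, IER3 and APOL6. The 250 bases before the start are given 5′ to 3′ along the gene's strand, and capitals mark the interferon-stimulated response element core GAAANNGAAA and the kappaB consensus, on either strand.
CXCL10, chr4:76023498-76023747, minus strand: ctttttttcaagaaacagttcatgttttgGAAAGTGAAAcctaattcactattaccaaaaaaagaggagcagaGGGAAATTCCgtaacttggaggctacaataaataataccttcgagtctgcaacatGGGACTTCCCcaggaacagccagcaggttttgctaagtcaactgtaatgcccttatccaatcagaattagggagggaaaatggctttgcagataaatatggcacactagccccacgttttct
CXCL11, chr4:76036071-76036320, minus strand: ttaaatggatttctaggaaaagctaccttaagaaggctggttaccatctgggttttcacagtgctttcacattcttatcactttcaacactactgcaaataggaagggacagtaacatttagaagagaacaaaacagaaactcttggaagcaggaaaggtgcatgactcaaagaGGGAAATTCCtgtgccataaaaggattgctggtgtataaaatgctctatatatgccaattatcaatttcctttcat
IFIT1, chr10:89392373-89392622, plus strand: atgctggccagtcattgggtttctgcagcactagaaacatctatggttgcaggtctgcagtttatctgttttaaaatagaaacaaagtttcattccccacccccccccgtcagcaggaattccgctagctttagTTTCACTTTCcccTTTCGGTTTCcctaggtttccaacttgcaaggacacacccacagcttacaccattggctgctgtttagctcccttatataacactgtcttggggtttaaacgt
IFIT3, chr10:89327747-89327996, plus strand: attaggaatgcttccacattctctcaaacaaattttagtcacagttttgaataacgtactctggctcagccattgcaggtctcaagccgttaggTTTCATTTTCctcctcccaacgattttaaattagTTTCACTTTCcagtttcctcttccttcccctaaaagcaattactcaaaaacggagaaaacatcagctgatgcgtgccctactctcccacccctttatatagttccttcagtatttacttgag
The CXCL10 stretch held the response element core 221 bases before the start and the kappaB consensus 177 and 122 bases before it. The CXCL11 stretch held the kappaB consensus 76 bases before the start. The core stood on the opposite strand of IFIT1, at 116 and 103 bases before the start, and of the first of 2 IFIT3 windows, at 156 and 122 bases. Over the 23 genes with a window, 7 held the core (CXCL9, CXCL10, IFIT3, IFIT1, TNFSF10, GBP4 and NCOA7), against 4.38% of the 27305 genes in the table. The kappaB consensus was in 6 (CXCL11, CXCL10, TNFRSF9, BIRC3, GBP4 and IRF1), against 7.09% of all genes, and the AP-1 motif TGANTCA in 3 (CXCL11, TNFRSF9 and IL10RA), against 9.37%. A letter match is a description and shows no binding.

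The 3 ligands of the receptor CXCR3, which draw activated T cells, all rose, CXCL9 with the largest fold change of the 33 genes. CXCL9 (ENSG00000138755) had normalized counts of 0, 5.92, 8.61 and 2.75 in HA libraries 1 to 4 and 209.7, 199, 247 and 109 in HA LPS libraries 1 to 4. It was at or near 0 in untreated cells, with 17 reads in 4 libraries, and its log2 fold change was 5.53 (SE 0.64, limma adjusted p = 0.00223). CXCL10 (ENSG00000169245) had 177, 156, 307 and 254 in HA and 2483, 4861, 3944 and 4762 in HA LPS libraries, and with a mean after LPS of 4013 ± 1099 (SD, n = 4) it gained the most counts of all genes called. Its log2 fold change was 4.16 (SE 0.26, limma adjusted p = 1.77e-05). CXCL11 (ENSG00000169248) had 53.7, 18.6, 57.8 and 34.8 in HA and 699.7, 957, 996 and 768 in HA LPS libraries, a log2 fold change of 4.45 (SE 0.32, limma adjusted p = 4.89e-05). No HA LPS library of any of these genes came near the HA range, although HA LPS 1 had the lowest CXCL10 and CXCL11 counts of its group.

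Of the CCL chemokines, ligands of CC chemokine receptors that attract monocytes and T cells, CCL3, CCL4, CCL8, CCL3L1 and CCL4L2 rose. CCL4 (ENSG00000275302) had 2.15, 22.9, 29.5 and 26.6 in HA and 366, 589, 482 and 661 in HA LPS libraries (log2 fold change 5.02, SE 0.62, limma adjusted p = 0.00297). CCL3 (ENSG00000277632) had 323, 315, 220.1 and 274 in HA and 2957, 1493, 1812 and 1569 in HA LPS libraries (log2 fold change 2.75, SE 0.22). CCL8 (ENSG00000108700) had 4.30, 3.39, 2.46 and 2.75 in HA and 26.8, 78.7, 82.2 and 37.1 in HA LPS libraries (log2 fold change 3.63, SE 0.51, limma adjusted p = 0.00658). CCL8 lost its call in 10 of 20 alternative fits. Among these were limma voom, no filter and all 32 libraries in the fit (limma adjusted p = 0.0108). The groups stood apart for each, and HA 1 had the lowest CCL4 count of the untreated libraries. CCL4L2 rose from 23.3 to 619 in mean count and CCL3L1 from 161 to 2101. CCL4L2 and CCL3L1 are near-identical copies of CCL4 and CCL3, so how reads were divided within each pair is uncertain. GENCODE release 44 gives the identifier that the tables name CCL3L1 (ENSG00000276085) the symbol CCL3L3.

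CCL2, the main attractant of CCR2-bearing monocytes and one of the genes the study measured by Q-PCR, did not pass the test. It had 9.67, 2.54, 17.2 and 40.3 in HA and 67.05, 315, 96.8 and 365 in HA LPS libraries, so the groups did not overlap while the libraries of a group spread widely (log2 fold change 3.68, SE 0.74, limma adjusted p = 0.0816). CCL5 had mean counts of 892 and 1699 (log2 fold change 0.92, limma adjusted p = 0.0191), also without overlap. Both CCL2 and CCL5 were called with the replicate number as a block and with library weights. With all 32 libraries in the fit CCL5 was called and CCL2 was not (limma adjusted p = 0.444 for CCL2). Of the 26 chemokine genes listed, 12 were tested, and 8 of them rose, 0 fell and 12 lay above 0. Their median log2 fold change was 3.69, against 0.0046 over all genes tested, and 0.267% of all genes tested rose. The filter took both groups together. CXCL9, CCL8 and CXCL8, with HA means of 4.32, 3.22 and 5.91, reached it only through their HA LPS libraries. Chemokine genes that stayed low in both groups were left out, so the number above 0 and the median hold for the 12 tested only. The other 14 did not reach the filter, among them the neutrophil attractants CXCL1 with 11 reads in HA and 16 in HA LPS libraries, CXCL2 with 0 and 5, and CXCL3 with 2 and 30. CXCL8 had mean counts of 5.91 and 27.95 (limma adjusted p = 0.662).

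Of 39 cytokine genes listed, 17 were tested, of which 3 rose and 0 fell, while 0.267% of all genes tested rose. Their median log2 fold change was 0.95. Genes low in both groups did not reach the filter, and genes low before LPS could reach it only through their HA LPS libraries. The median thus holds for the 17 tested only. IL1B (ENSG00000125538), the precursor of interleukin 1 beta, had 56.9, 33.9, 73.8 and 48.5 in HA and 273, 353, 288 and 309 in HA LPS libraries (log2 fold change 2.55, SE 0.25, limma adjusted p = 6.38e-04). TNF (ENSG00000232810) had 729, 888, 750.1 and 836 in HA and 1668, 1548, 1365 and 1629 in HA LPS libraries (log2 fold change 0.95, SE 0.13, limma adjusted p = 0.00658). TNF thus started from a high count and had the smallest fold change of the genes called, while its groups stayed apart. TNF lost its call in 9 of 21 alternative fits (limma adjusted p up to 0.0415). These were each fit with 1 library left out and that without both libraries numbered 1. TNFSF10, the death ligand TRAIL, rose from 393 to 1461 in mean count (limma adjusted p = 1.90e-04).

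IL6, which the study followed by Q-PCR, had 0 reads in all 8 libraries, which allows up to 3 reads in a library by counting error. IL10, IFNG and CSF2 also had 0 reads in all 8. IFNB1, the gene of interferon beta, had 0 reads in HA and 3 in HA LPS libraries, and IL12B had 1 and 9. None of these could be tested at this depth.

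**Figure D2:**
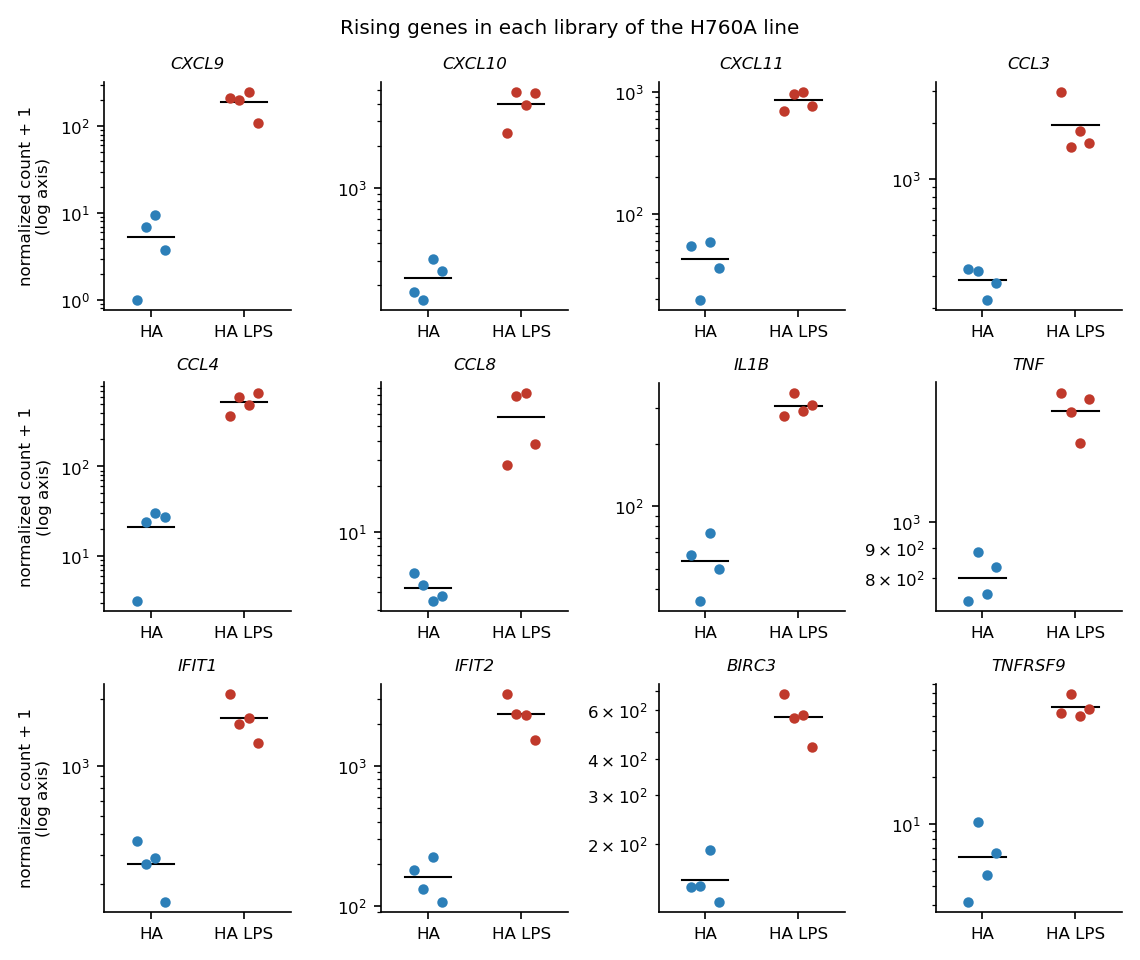
Normalized counts plus 1 on a log axis, with a scale of its own in each panel, for 12 genes that rose, 1 point per library (blue HA, red HA LPS) and a line at the group mean of 4 libraries. In each panel the 4 HA LPS libraries lie above the 4 HA libraries.

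The interferon-stimulated genes lay mostly above 0, and 8 passed the test. Of 80 genes listed, 78 were tested, of which 8 rose and 0 fell, while 0.267% of all genes tested rose. In the list, 68 lay above 0, 39 had an unadjusted limma p below 0.05, and the median log2 fold change was 0.49. The number called was 18 with the replicate number as a block, 16 with library weights and 12 with all 32 libraries in the fit. It was 3 without HA LPS 2 and 3 without HA LPS 3. IFIT2 (ENSG00000119922), whose family binds viral RNA and restrains its translation, had 180.5, 130.3, 223 and 105 in HA and 3271, 2334, 2320.2 and 1538 in HA LPS libraries (log2 fold change 3.89, SE 0.27, limma adjusted p = 3.81e-05). IFIT3 had 515, 466, 432 and 375 in HA and 2979, 3382, 3523 and 2799 in HA LPS libraries (log2 fold change 2.83, SE 0.15). IFIT1 had 464, 365, 389.8 and 247 in HA and 2098, 1547, 1636 and 1267 in HA LPS libraries (log2 fold change 2.17, SE 0.21). The rise was thus largest for IFIT2, and HA LPS 4 was the lowest library of its group for each of the 3 genes.

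The guanylate-binding proteins GBP5 and GBP4, GTPases that act on intracellular pathogens, rose from 66.7 to 325 and from 108 to 319 in mean count. OASL, a relative of the oligoadenylate synthetases, rose from 97.6 to 452, the transcription factor IRF1 from 907 to 2430.1 and APOL6 from 538 to 1121. DDX58, the sensor RIG-I, CMPK2, RSAD2, SAMD9 and HERC5 passed an adjusted p of 0.05 and not 0.01. Other well-known members had high counts already in untreated HA cells and did not pass the test, such as IFI27 at 21473 before and 25283 after, ISG15 at 2890.1 and 4765, and MX1 at 5416 and 6641 in mean count. The transcription factor gene STAT2, at 381 and 358, did not pass either. With the replicate number as a block, ISG15 was called.

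NF-kB regulators and feedback inhibitors gave 3 of 35 genes that rose and 0 that fell, while 0.267% of all genes tested rose. In this list, 31 lay above 0, 20 had an unadjusted limma p below 0.05, and the median log2 fold change was 0.56. PELI1, a ubiquitin ligase of IRAK signalling, had 19.3, 22.9, 20.9 and 12.8 in HA and 118, 105, 74.9 and 137 in HA LPS libraries (log2 fold change 2.45, SE 0.31, limma adjusted p = 0.00344). BIRC3, the inhibitor of apoptosis cIAP2, had 139.6, 141, 189 and 124 in HA and 683, 558, 572 and 442 in HA LPS libraries (log2 fold change 1.92, SE 0.19, limma adjusted p = 7.23e-04). IER3 rose from 72.4 to 246 in mean count. The feedback inhibitors best known from this pathway did not pass the main test. TNFAIP3, the deubiquitinase A20, stood at 736 and 1729.6 in mean count before and after (log2 fold change 1.21, limma adjusted p = 0.0731). NFKBIA stood at 3328 and 8586 (log2 fold change 1.38, limma adjusted p = 0.324). TNFAIP3 was called with the replicate number as a block, with library weights and without both libraries numbered 1. NFKBIA was called with the block only. The alternative fits called 1 to 11 genes of this list. NFKB1, BCL3 and TNFAIP8 passed at 0.05 and not at 0.01.

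Of the AP-1 and immediate early factors, 4 of 26 rose and 0 fell, while 0.267% of all genes tested rose. The median log2 fold change was 0.20. Of the 4, ATF3, a stress-induced repressor of inflammatory genes, rose from 55.2 to 197 in mean count, JUN from 456 to 1025 and CSRNP1 from 141 to 342. ATF3 and JUN each lost their call in 6 of 21 alternative fits and CSRNP1 in 8. The list held 0 calls without HA 2, without HA LPS 2 or without HA LPS 3, and 1 without HA 3 or without HA 4. FOS, the partner of JUN in AP-1, stood at 115 and 85.4 (limma adjusted p = 0.954). Among signal terminators 0 of 26 passed at 0.01 (8 at an unadjusted limma p below 0.05, and 0 by limma voom), with a median of 0.36, but 1 passed in the fit of all 32 libraries. ZC3H12A, the RNase Regnase-1 that degrades cytokine mRNA, had mean counts of 729.8 and 1772 (limma adjusted p = 0.0128). It was the gene called with all 32 libraries (limma adjusted p = 9.70e-04). It also passed with the replicate number as a block, with no filter, with library weights, without HA 4, without HA LPS 1 and without both libraries numbered 1.

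Outside the lists stood 6 of the 33 genes. TNFRSF9, the costimulatory receptor 4-1BB, had 2.15, 9.31, 3.69 and 5.49 in HA and 51.2, 67.9, 48.9 and 54.3 in HA LPS libraries (log2 fold change 3.32, SE 0.46, limma adjusted p = 0.00658). Its HA mean was 5.16, so it reached the filter only through its HA LPS libraries. SLAMF7, an adhesion receptor of the SLAM family, rose from 63.01 to 293 in mean count. ZC3HAV1, the antiviral protein ZAP, rose from 1419 to 3263 and the interferon-responsive NCOA7 from 940.2 to 2405. PMAIP1, the BH3-only protein NOXA, rose from 394 to 982 and NEXN, an actin-binding protein, from 256 to 582. Over the alternative fits, TNFRSF9 lost its call in 9 of 20, while SLAMF7 kept it in all 21. ZC3HAV1 lost its call in 9 of 21, NCOA7 in 5, PMAIP1 in 3 and NEXN in 11. Among the surface receptors, adhesion and costimulation genes, 1 of 36 rose, the interleukin 10 receptor chain IL10RA (from 679 to 1630.2), with a median of -0.06 over the list. CD40 stood at 58.1 and 165 (limma adjusted p = 0.104) and ICAM1 at 80.4 and 239 (limma adjusted p = 0.121), both without overlap between the groups. With the replicate number as a block, CD40 was called.

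**Figure D3:**
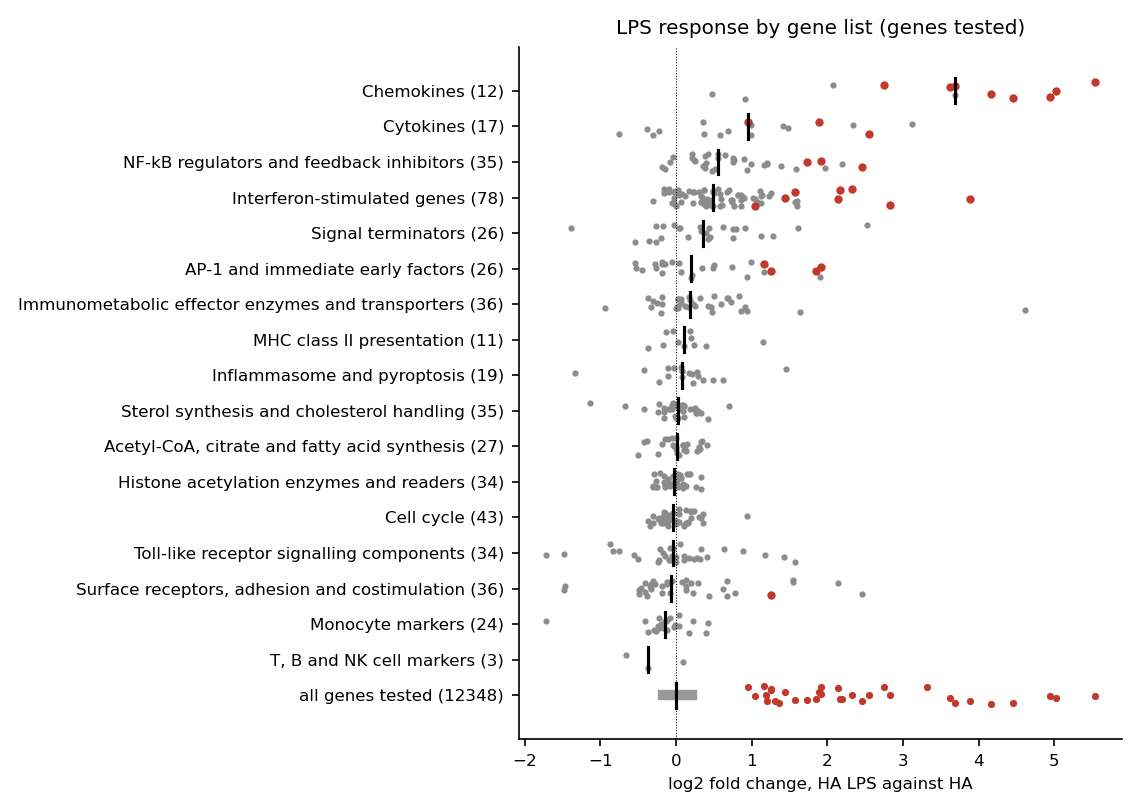
Log2 fold change of HA LPS against HA cells for the genes of each list (1 point per gene tested, red past an adjusted p of 0.01), with the median as a black bar and the number tested in parentheses. The lowest line gives the 33 genes called and, in grey, the middle 50% of all 12348 genes tested; the chemokine median lies at 3.69 and the all-gene median at 0.0046.

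None of the genes that sense LPS was called, where 0.267% of all genes tested were called. Of 34 Toll-like receptor signalling genes tested, 0 passed in either direction (4 at an unadjusted limma p below 0.05, and 0 by limma voom), and the median log2 fold change was -0.04. CD14 (ENSG00000170458) had 85.9, 102, 62.7 and 56.8 in HA and 17.1, 13.9, 31.2 and 31.7 in HA LPS libraries, so every HA LPS library was lower, with a log2 fold change of -1.71 (SE 0.36, limma adjusted p = 0.0999). TLR4 had 12.9, 20.3, 15.99 and 12.8 in HA and 1.22, 4.63, 7.28 and 9.95 in HA LPS libraries, also without overlap (log2 fold change -1.48, SE 0.63, limma adjusted p = 0.949). LY96 overlapped, with means of 13.6 and 7.23. CD14 passed in a fit that took its spread from all 32 libraries (limma adjusted p = 1.50e-04), and so did C1QA, a chain of complement C1q, at 71.97, 44.01, 12.3 and 43.03 in HA and 9.75, 4.63, 3.12 and 4.52 in HA LPS libraries. The adaptor genes MYD88 (55.1 and 92.01) and TICAM1 (64.6 and 133), which codes for TRIF, did not pass (limma adjusted p = 0.949 for each). TICAM2, the bridging adaptor TRAM, had 0 reads in all 8 libraries.

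The lowest adjusted p among genes below 0 belonged to IL16, the precursor of a CD4-binding attractant. It had 157, 201, 205 and 175 in HA and 99.96, 94.1, 71.8 and 91.4 in HA LPS libraries (log2 fold change -1.04, SE 0.20, limma adjusted p = 0.0578), and was named after its values were seen. LYL1, a haematopoietic transcription factor, had 841, 727, 643 and 761 and 484, 442, 471 and 513 (limma adjusted p = 0.124), and was likewise named afterwards. Each HA LPS library lay below each HA library for both. ZFP36L1, which binds AU-rich mRNA, had mean counts of 50.7 and 18.3 (limma adjusted p = 0.404).

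**Figure D4:**
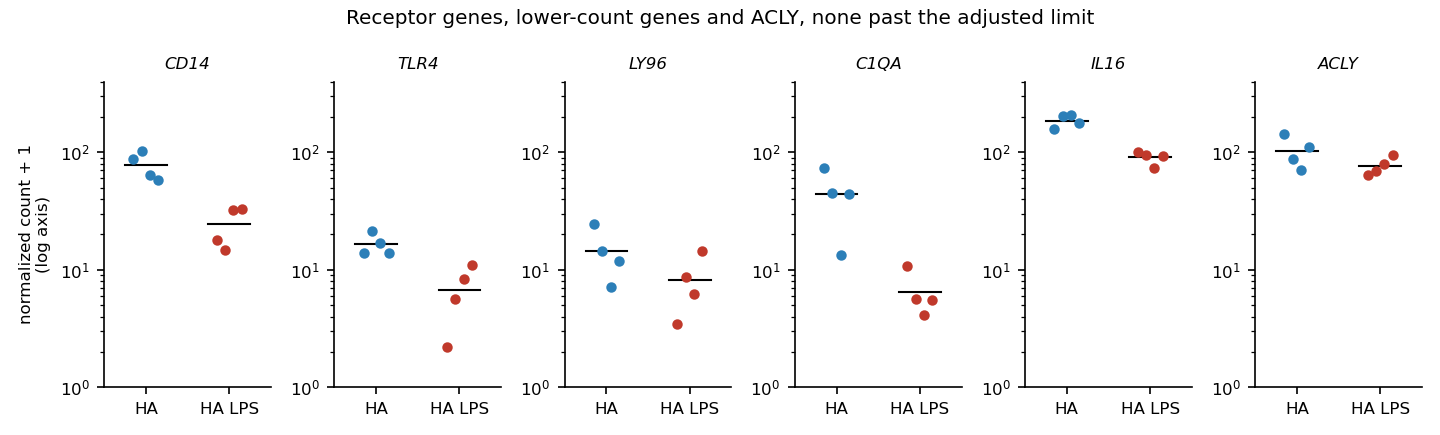
Normalized counts plus 1 on a log axis for CD14, TLR4, LY96, C1QA, IL16 and ACLY, 1 point per library (blue HA, red HA LPS) and a line at the mean of 4 libraries. HA LPS libraries lie below all HA libraries for CD14, TLR4, C1QA and IL16 and overlap with them for LY96 and ACLY, and none of the 6 passed the adjusted limit.

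No gene was called in the pathway of the mutated enzyme and its neighbours. Among acetyl-CoA, citrate and fatty acid synthesis genes 0 of 27 passed, among sterol synthesis and cholesterol handling genes 0 of 35 and among histone acetylation enzymes and readers 0 of 34. At an unadjusted limma p below 0.05 stood 0 in each list, and limma voom called 0 in each. Over all genes tested, 0.267% were called and 596 of 12348 had an unadjusted limma p below 0.05. At that share called, a list of 27 to 35 genes would seldom hold a call. The 0 calls thus do not set these lists apart. The medians were 0.01, 0.03 and -0.02. FASN, the fatty acid synthase, had 3558, 3020.0, 2275 and 2596 in HA and 3413, 3274, 2444 and 2291 in HA LPS libraries, and the groups overlapped. ACSS2, which makes acetyl-CoA from acetate, stood at 209.6 ± 41.8 and 215 ± 92.7 (SD, n = 4). ABCA1, a cholesterol exporter, stood at 27.4 ± 8.63 and 16.7 ± 11.6 (limma adjusted p = 0.949), and its relative ABCG1 had 5 and 6 reads, below the filter. Immunometabolic enzymes and transporters gave 0 of 36 at 0.01 (8 at an unadjusted limma p below 0.05, and 0 by limma voom) and 2 at an adjusted p of 0.05, with a median of 0.18. These were ACOD1, the itaconate-forming enzyme, with 1 read in HA and 154 in HA LPS libraries (limma adjusted p = 0.0233), and the mitochondrial superoxide dismutase SOD2 at 452, 389, 578 and 626 and 935, 2119, 1476 and 2051. ACOD1 reached the filter only through its HA LPS libraries. It passed 0.01 in the fit of all 32 libraries (limma adjusted p = 2.13e-05), as did the glucose transporter gene SLC2A6. SOD2 passed with the replicate number as a block, with no filter and without HA LPS 1. Both ACOD1 and SOD2 passed with library weights and without both libraries numbered 1.

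The remaining lists had no gene called by the main test, which called 0.267% of all genes tested. They were inflammasome and pyroptosis (0 of 19, median 0.08), cell cycle (0 of 43, median -0.04), MHC class II presentation (0 of 11, median 0.11) and monocyte markers (0 of 24, median -0.14). The numbers at an unadjusted limma p below 0.05 were 4, 2, 1 and 2, and limma voom called 0 in each. The fit of all 32 libraries called CD14 among the monocyte markers, and the replicate block called 1 inflammasome and pyroptosis gene. CIITA, the master regulator of MHC class II, had mean counts of 76.6 and 174 without overlap (limma adjusted p = 0.116), while HLA-DRA stood at 2810.5 and 3270.1.

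Whether the response of HA cells differed from that of the other lines was asked by subtracting the LPS difference of each line from that of HA in a fit of all 32 libraries on a shared scale. No gene was called in HA minus WT, HA minus KO or HA minus SA (0 of 12348 each by limma, with 142, 131 and 385 at an unadjusted p below 0.05, where 617.4 would be expected without any difference). All 33 genes that rose in HA cells lay above 0 in the WT, KO and SA lines too. Their median log2 fold change on this scale was 1.56 in WT, 1.90 in KO, 2.32 in SA and 2.14 in HA, where they had been chosen for their rise. All HA differences share the HA libraries. Of the 33, 5 had an unadjusted p below 0.05 in HA minus WT (CCL3L1, TNFRSF9, IL1B, ATF3 and NCOA7, all with a larger rise in HA). In HA minus KO it was 1 (TNFRSF9), and in HA minus SA 4 (TNFRSF9 with a larger rise in HA, and SLAMF7, IFIT1 and OASL with a larger rise in SA).

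TNFRSF9 had the smallest p of all genes in HA minus KO. The genes tested in these differences were filtered on the HA line, and TNFRSF9 reached that filter only through its HA LPS libraries. Its log2 fold change with LPS was 3.31 in HA, 1.86 in WT, 0.84 in KO and 2.27 in SA cells (SE 0.35 each). The difference HA minus KO was 2.47 (SE 0.50, unadjusted p = 3.39e-05, limma adjusted p = 0.419), so it did not hold after adjustment. PTGS2, the cyclooxygenase COX-2, had -0.33 in HA and 1.94 in KO cells, a difference of -2.27 (SE 0.57, unadjusted p = 4.09e-04, limma adjusted p = 1.000). CCL5 had 0.92 in HA and 1.77 in KO cells, a difference of -0.85 (SE 0.20, unadjusted p = 1.95e-04, limma adjusted p = 1.000).

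Against WT, the smallest p belonged to PAX5, GNA14 and CD14. PAX5, a B lineage transcription factor, had 1.22 in HA and -0.46 in WT cells, a difference of 1.68 (SE 0.49, unadjusted p = 0.00203, limma adjusted p = 1.000). CD14 had -1.71 in HA, -0.54 in WT, -2.07 in KO and -1.43 in SA cells, and HA minus WT was -1.17 (SE 0.36, unadjusted p = 0.00318, limma adjusted p = 1.000). GNA14, a G protein subunit, differed by 1.52 (SE 0.46, unadjusted p = 0.00261, limma adjusted p = 1.000). Against SA they were IFIT1, NIP7 and PLCG1. IFIT1 had 2.17 in HA and 3.84 in SA cells, a difference of -1.67 (SE 0.46, unadjusted p = 0.00103, limma adjusted p = 0.979). NIP7, a ribosome biogenesis factor, differed by -0.59 and PLCG1, a phospholipase C, by 1.13 on the log2 scale. None of these differences held after adjustment.

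**Figure D5:**
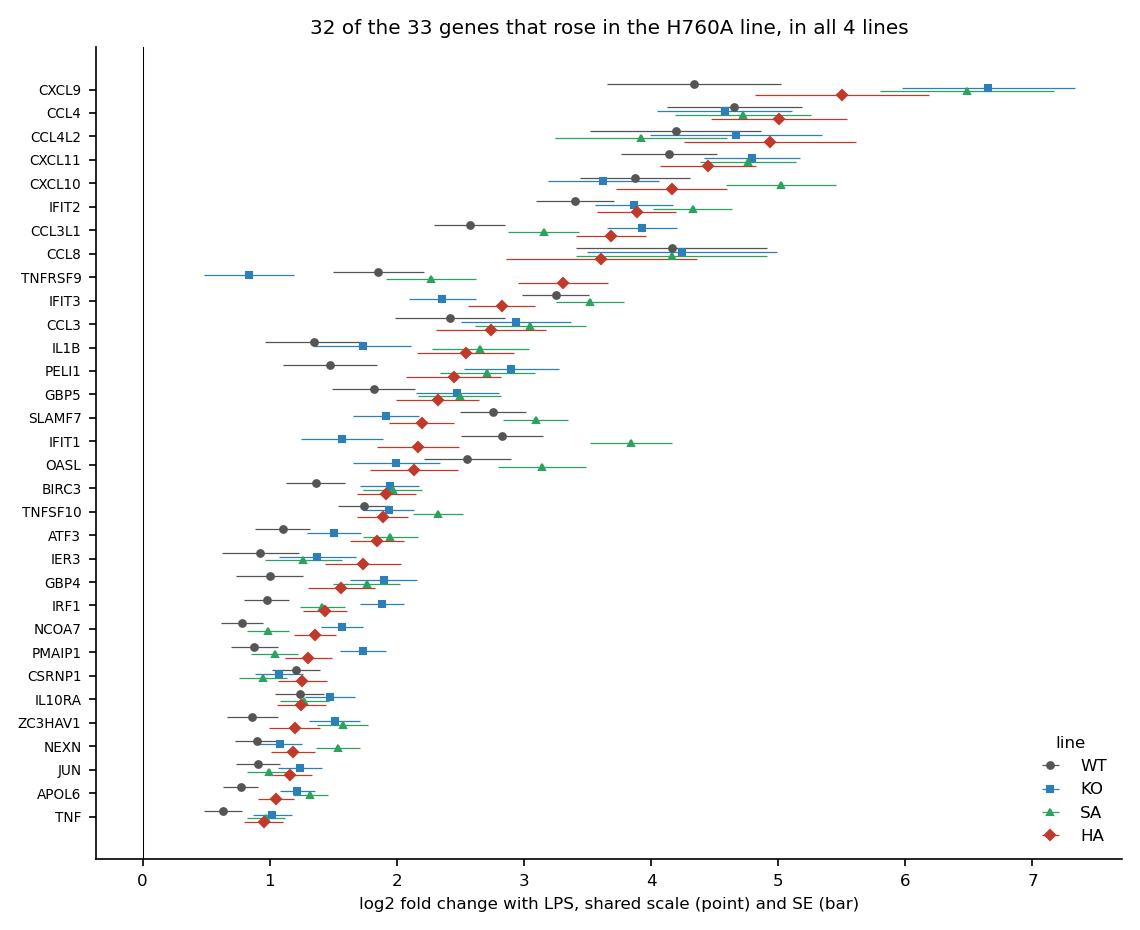
Log2 fold change with LPS on the shared scale (horizontal axis, bar for the SE from a fit of all 32 libraries) of 32 of the 33 genes that rose in HA cells, in the WT, KO, SA and HA lines. All points lie above 0; the KO value of TNFRSF9, 0.84, lies farthest below its HA value of 3.31 on this axis.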

How the data were processed

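Total RNA of THP-1 cells was sequenced as QuantSeq 3′ libraries. According to the methods, the authors used Bbduk for trimming, STAR for mapping to GRCh38, HTSeq-count for counting per gene and DESeq2 for testing, and versions and annotation release are not given in the sources used here. The deposited values are normalized counts, 1 table per line and treatment, with decimal commas. Division by 1 number per library turned 100% of the values into whole reads (tolerance 0.05 reads). That number matched the median-of-ratios size factor among the line's 8 libraries (difference 0.0000%). The 92 spike-in entries, with 1 read in all 32 libraries, were left out.

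The deposited HA values were compared with limma 3.58.1 in R 4.3.3 (lmFit and eBayes with a trend, two-sided) on log2(normalized count + 1). This scale makes changes of low genes look smaller than they are. Benjamini-Hochberg adjustment ran over 12348 genes, with calls below 0.01. Differences between lines used all 32 libraries with factors computed jointly, which differed from the deposited ones by up to 14.2%. Recovered reads served for depth, and for limma voom as an alternative. Molecular identifiers were not counted, so limits on 0 reads cover counting error only. Between libraries of a group the chi-square per gene was 18.5 to 106, so none was a copy. The test was also run on simulated data.

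The comparison and the 18 gene lists were chosen with earlier results of these data known. Genes named are ACLY, the Q-PCR and lipid genes of the study, the called genes with the 12 largest fold changes and 5 largest gains in counts, up to 5 called members of each list, and the 3 with the smallest p in each difference between lines. Others are named as members of a list or after their values were seen. Some genes are not reported here.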

Additional observations from a re-analysis of the deposited data

Results flagged for a closer look

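Over the 44 genes and 5 library measures examined in both groups, 98 groups of 4 libraries in all, 2 had a library farther from the others than Dixon's 95% limit, where chance gives about 1 in 20. The ACSS2 count was 354 in HA LPS 1 and 156 to 178 in the other HA LPS libraries, and without HA LPS 1 the log2 fold change was -0.29 in place of -0.02. The PMAIP1 count was 459 in HA 3 and 368 to 380 in the other HA libraries, and without HA 3 the log2 fold change was 1.38 in place of 1.31. ACSS2 was not called in either of these fits, and PMAIP1 was called in both.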

How the results depend on the processing

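The count of 33 called genes was 31 to 33 under 2 other filters on the mean and no filter, pseudocounts of 0.5 and 5, joint factors, trimmed mean of M-values factors and total reads, and 24 with limma voom, which was chosen after seeing the data. It was 50 with all 32 libraries in the fit, of which 48 rose and CD14 and C1QA fell. With 1 library left out it was 11 to 29: 13 without HA 2, 17 without HA 3, 21 without HA 4, 12 without HA LPS 2 and 11 without HA LPS 3. Among settings chosen after seeing the data, it was 60 with library weights (IL16 fell), 52 at a limit of 0.05 and 38 without both libraries numbered 1. With the replicate number as a block it was 72, all of which rose. Same-numbered HA and HA LPS libraries 1 to 4 correlated at 0.397, -0.218, 0.048 and 0.577 in their deviations from the group mean. Libraries 1 and 4 correlated most with their own number (highest with another -0.037 and 0.328). Libraries 2 and 3 correlated more with another number than with their own. The labels state no pairing, and whether the numbers mark shared batches was not tested. Of the 33 genes, 11 kept their call in every alternative run (CXCL10, CXCL11, IFIT1, IFIT2, IFIT3, CCL3, CCL3L1, BIRC3, IL1B, SLAMF7 and TNFSF10). Differences between lines gave 0 calls in every alternative run for them, the replicate block included. Values that changed sign belonged to genes without a call. FASN was -0.11 to 0.11 and ACSS2 -0.29 to 0.10 in log2 fold change with 1 library left out, and FASN was 0.060 with library weights and 0.013 without both libraries numbered 1. The causes were not tested. The count tests planned with edgeR and DESeq2 were not run. At 8188012 to 12964789 reads per library, genes with few reads such as IL6, IFNB1 and IL12B could not be compared.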
